A study of Mus musculus with 18 samples.

Results

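The comparison described here asks whether the pull-down of ribosomes from endothelial cells enriched the same genes in the mouse choroid as in the mouse retina. Its quantity is the enrichment difference: the log2 ratio of the Positive (pulled-down) to the Input (whole homogenate) fraction in choroid, minus the same log2 ratio in retina. A positive value means a larger enrichment in choroid, and a negative value a larger enrichment in retina. Its members are the 7313 genes that the deposited Choroid and Retina tables both list, out of 14411 genes listed in any tissue of the series. There are 7569 genes in the Choroid table and 12827 genes in that of Retina, so that 256 and 5514 genes of the respective tables had no counterpart in the other and are not described.

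Translating ribosome affinity purification (TRAP) recovers messenger RNA that is bound to a tagged ribosomal subunit made in 1 cell type. The retina and the choroid are neighbouring layers of the eye with different capillaries. Retinal capillaries form the inner blood-retina barrier, with tight junctions and dedicated transporters, while the choriocapillaris of the choroid has fenestrated walls that pass solutes towards the retinal pigment epithelium, which carries the outer barrier. Plvap, the protein of the diaphragm that spans fenestrae, and Slco1c1 and Mfsd2a, transporters of barrier endothelium, are textbook marks of these 2 kinds of vessel.

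Every library, whatever its tissue or fraction, came from animals with both the Cdh5(PAC)-cre/ERT2 transgene and the NuTRAP allele, after Cre was activated with tamoxifen (Tam). The Cre is a fusion with a mutated oestrogen receptor under the promoter of Cdh5, the vascular endothelial cadherin gene, so the tag can be switched on in any cell that uses that promoter, endothelium of lymphatic vessels included. The NuTRAP allele carries a GFP-tagged Rpl10a, which the anti-GFP antibody pulls down, and a nuclear tag built on Rangap1. There was no group without Cre, and Input and Positive fractions of the same genotype served as each other's reference. The 4 groups are Choroid Input, Choroid Positive, Retina Input and Retina Positive, each with 3 biological replicates, 12 of the 18 libraries in the series. Age, sex, tamoxifen dose and any pooling of animals are not stated in the labels.

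Depth differed between tissues. Estimated counts on the shared genes ranged from 1967509 to 9749609 in Choroid Input, from 707501 to 2689658 in Choroid Positive, from 17288929 to 29608233 in Retina Input and from 10447398 to 22231174 in Retina Positive. Choroid Positive replicate 2 was the shallowest library, with 636 shared genes below 10 counts and 13.1% of its counts on the ribosomal RNA gene Rn45s. Log2 levels correlated at 0.834 to 0.933 among Choroid Positive replicates and at 0.991 to 0.993 among Retina Input replicates. A gene entered a deposited table when every library of at least 1 fraction held at least 50 counts, which in Choroid was met in both fractions by 2974 of the shared genes, through Input alone by 4215 and through Positive alone by 124. A gene listed through Input alone is one that was high there, so counts over such genes describe these tables and support nothing by themselves. Levels below are normalised CPM (counts scaled to a common library size) over the shared genes, given for replicates 1, 2 and 3 in that order.

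The tissue labels were checked against defining markers. Plvap stood at 1365, 676 and 1333 CPM in Choroid Input and at 14.7, 10.5 and 12.5 in Retina Input. Sag, the rod arrestin, stood at 3727, 4999 and 5202 CPM in Retina Input and at 112, 126 and 156 in Choroid Input, so rod RNA was also counted in the choroid homogenate, at a far lower level. Rpe65, the retinoid isomerase of the pigment epithelium, reached 2057, 3528 and 3237 CPM in Choroid Input, so RNA of pigment epithelium was counted there beside that of vessels. The endothelial genes Cdh5, Pecam1, Cldn5 and Tek rose in Positive over Input in both tissues. Tyrp1, Pmel and Pcp2 were not among the shared genes and were not used.

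Enrichment differed between the tissues for 2322 of the 7313 genes, 31.8%, by edgeR's quasi-likelihood test of the interaction with Benjamini-Hochberg adjusted p under 0.05 over all shared genes, the rule for every call below. Of these, 694 (9.49% of the genes tested) were enriched more in choroid and 1628 (22.3%) more in retina, against a median difference of -0.08 over all genes and a median standard error (SE) of 0.31. At least 2-fold differences made up 356 of the former and 1412 of the latter. The higher count was 455 without Retina Input 1 and 442 without Retina Input 2. In a fit of all 18 libraries, Brain included, it was 1581 against 1691 lower, so that 48.3% of the called genes were higher in place of 29.9%, with the median over all genes shifted by 0.15. In choroid alone, 1776 genes (24.3%) rose and 1817 (24.8%) fell in Positive over Input, 49.1% together. In retina, 1038 (14.2%) rose and 182 (2.49%) fell, 16.7% together.

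The largest class of differing genes fell in choroid with no call in retina and held 1058 genes, of which 840 met the Choroid minimum through Input alone. Their median level went from 106 CPM in Choroid Input to 30.5 in Choroid Positive, and from 62.0 in Retina Input to 57.0 in Retina Positive. Another 550 genes rose in choroid with no call in retina, at medians of 61.5 and 130.0 CPM in choroid and of 101 and 99.5 in retina. Among the 654 genes that rose in both tissues, 219 were enriched more in retina and 55 more in choroid. For those 219, the median Retina Input level was 4.11 CPM and the median Choroid Input level 80.7 CPM, while the Positive medians were 90.9 and 270.3. A further 91 differing genes fell in choroid and rose in retina, and 17 did the reverse.

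**Figure D1:**
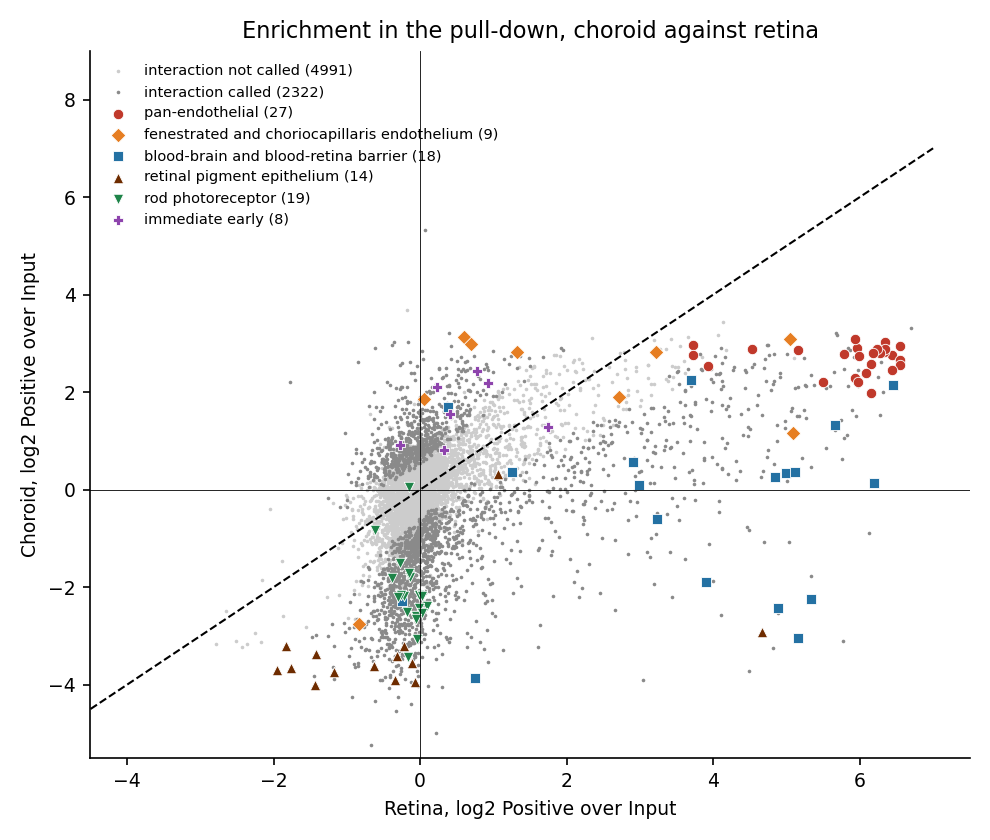
Each point is 1 of the 7313 shared genes, placed by its log2 Positive over Input in retina (horizontal) and in choroid (vertical), with 6 gene lists coloured and the dashed line marking equal enrichment. Pan-endothelial genes (red) other than Kdr sit to the right and below the line, fenestrated genes (orange) spread to both sides, barrier genes (blue) other than Cgn lie below the line, and most pigment epithelium and rod genes lie below 0 in choroid.

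Genes common to endothelium rose in both tissues and by less in choroid. Of 27 measured pan-endothelial genes, 27 rose in choroid and 26 in retina, and the enrichment difference was called lower for 24 and higher for 1. Their median log2 enrichment was 2.77 in choroid and 6.08 in retina, with a median difference of -3.38. Over these genes the Choroid Positive libraries all lay above the Retina Positive libraries in 26 of 27 (30.6% of all genes tested), and the Choroid Input libraries all lay above the Retina Input libraries in 27 of 27 (39% of all genes). The median log2 ratio of choroid to retina was 2.20 in Positive and 5.45 in Input, and the enrichment difference is by construction the first minus the second. Summed, the list took 0.518% ± 0.142 (SD, n = 3) of the counts in Choroid Input, 3.18% ± 0.636 in Choroid Positive, 0.0389% ± 0.00375 in Retina Input and 0.840% ± 0.367 in Retina Positive. Fewer endothelial cells and less endothelial RNA per cell cannot be told apart in such homogenates.

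Cdh5 (chr8:104101625-104144502, mm10), whose promoter drives the Cre, stood at 213, 108 and 229.8 CPM in Choroid Input and 1664, 1157 and 1453 in Choroid Positive. In retina it stood at 3.27, 2.53 and 4.47 CPM in Input and 221, 249 and 481 in Positive. No choroid library overlapped the retina library of the same fraction. Its enrichment was 2.95 log2 in choroid and 6.54 in retina, a difference of -3.59 ± 0.48 (SE, adjusted p = 8.37e-05), so that the Positive to Input ratio was 12.1-fold smaller in choroid. Tek, the angiopoietin receptor, went from 209, 117 and 171 to 1292, 937 and 1125 CPM in choroid and from 5.70, 4.94 and 5.45 to 336, 357 and 704 in retina, a difference of -3.68 ± 0.40. Tie1, its co-receptor, went from 363, 180.4 and 353 to 2572, 1970.0 and 2787 CPM in choroid and from 4.59, 2.29 and 4.69 to 229, 227 and 487 in retina, a difference of -3.32 ± 0.50. Both receptors were thus higher in every choroid library than in any retina library of the same fraction.

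Binding sites of ETS factors such as Erg and Fli1, which maintain endothelial identity, are common in promoters of this gene group. In the 250 bases upstream of the transcription start (RefSeq, GRCm38.p6, the assembly that mm10 denotes), the letters CAGGAA on either strand were found in 11 of the 16 pan-endothelial genes that had a promoter entry, 68.8%. The same letters were found in 25.6% of 5899 tested genes with an entry and in 28.3% of the 27025 genes of the promoter table. Among lists described below, they were in 4 of 6 Müller glia and astrocyte genes (66.7%) and in none of 6 fenestrated endothelium genes. A match describes letters and not binding, and no test was made. The promoters of Tek and Tie1 are shown because they hold these letters. Capitals mark the matches, here on the opposite strand. The Tek window lies at chr4:94739039-94739288 on the plus strand and the Tie1 window at chr4:118489850-118490099 on the minus strand, each written 5′ to 3′ along the gene.
Tek: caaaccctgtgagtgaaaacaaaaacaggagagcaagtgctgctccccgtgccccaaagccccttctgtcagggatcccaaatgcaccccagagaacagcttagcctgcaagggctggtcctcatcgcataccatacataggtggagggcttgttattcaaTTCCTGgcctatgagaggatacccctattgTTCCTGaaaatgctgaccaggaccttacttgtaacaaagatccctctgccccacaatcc
Tie1: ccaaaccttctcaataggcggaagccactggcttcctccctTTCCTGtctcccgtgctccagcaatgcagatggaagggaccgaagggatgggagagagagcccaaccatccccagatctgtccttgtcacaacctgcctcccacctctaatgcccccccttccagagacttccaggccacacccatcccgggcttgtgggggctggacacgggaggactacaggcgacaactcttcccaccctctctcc

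Other members of the list had the same pattern. Cd93 had the lowest difference at -4.17 ± 0.42, with 2.61, 2.45 and 3.00 CPM in Retina Input and 120.2, 163 and 289.9 in Retina Positive against 97.6, 111 and 144 and 478, 352 and 563 in choroid. Cldn5, the claudin of endothelial tight junctions, stood at 1628, 1669 and 1663 CPM in Choroid Positive and 857, 799 and 1233 in Retina Positive and differed by -3.50 ± 0.30. Pecam1, an adhesion molecule of endothelial contacts, differed by -3.06 ± 0.43, and Emcn, the sialoglycoprotein endomucin, by -3.64 ± 0.41. Nos3, the endothelial nitric oxide synthase, had the smallest called decrease, -1.40 ± 0.32. Flt1, a VEGF receptor, gave -0.95 ± 0.44 (adjusted p = 0.115) and Esam, a junctional adhesion molecule, -0.75 ± 0.39 (adjusted p = 0.159), and neither passed the test; Flt1 did so without Choroid Input 2, at -1.19 ± 0.41.

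Kdr, the main signalling receptor for VEGF, was the 1 pan-endothelial gene enriched more in choroid. It went from 601, 230.1 and 618 CPM in Choroid Input to 4399, 2874 and 4196 in Choroid Positive. In retina it stood at 203, 185 and 159 CPM in Input and 229, 224 and 432 in Positive. The choroid Positive libraries were separate from and above all others. Every Retina Positive library also lay above every Retina Input library, by a smaller factor than in choroid. The difference was 2.29 ± 0.49 (adjusted p = 0.00268), with an enrichment of 2.98 in choroid and of 0.69 in retina, which did not pass the test there (adjusted p = 0.229). Its Retina Input libraries all lay below its Choroid Input libraries, by a far smaller factor than for Cdh5.

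**Figure D2:**
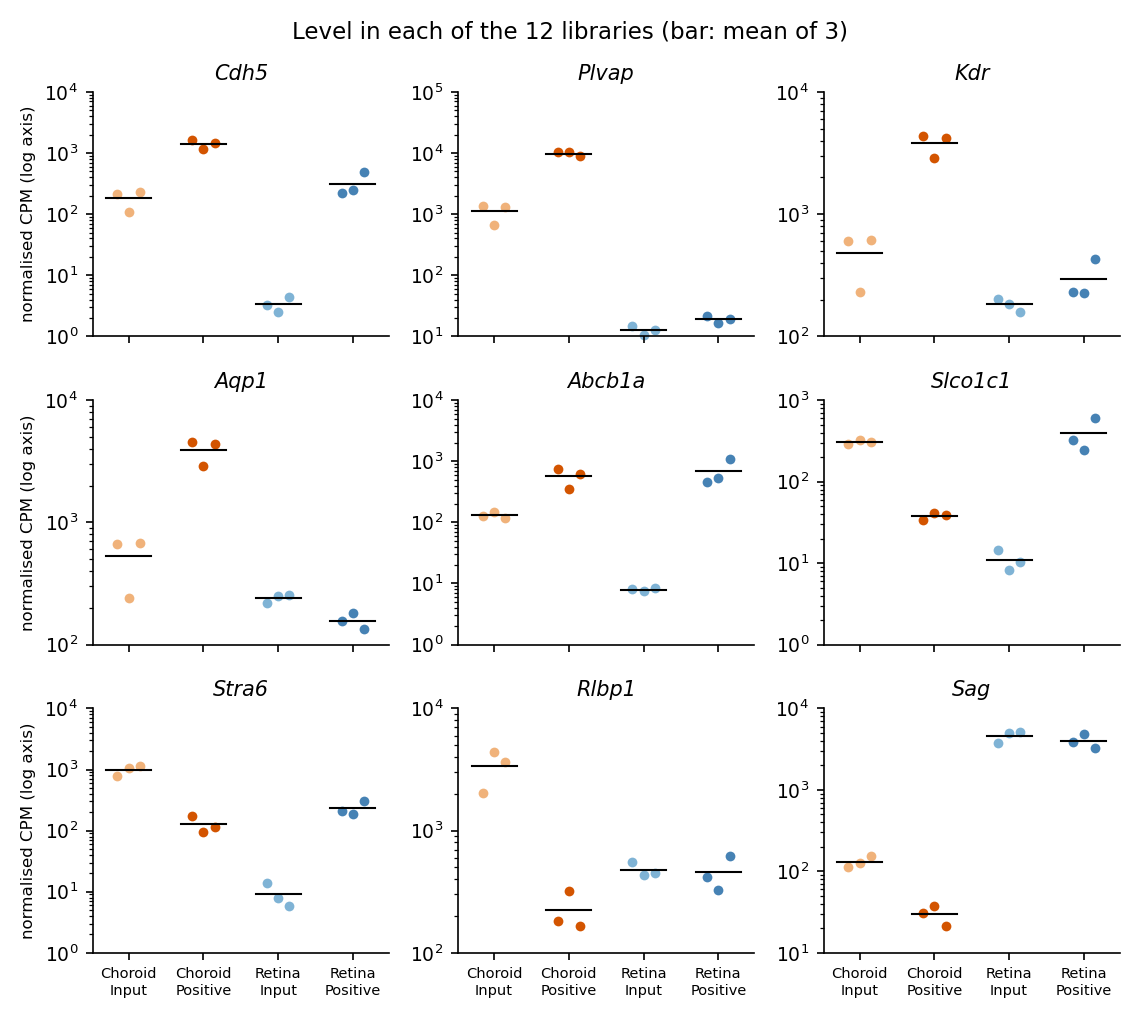
Normalised CPM on log axes for 9 genes in the 12 libraries, 3 points per group with a bar at the mean. Cdh5 is high in both Positive groups, Plvap, Kdr and Aqp1 are high in Choroid Positive, Slco1c1 and Stra6 fall in choroid and rise in retina, and Rlbp1 and Sag fall in choroid with little change in retina.

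The measured genes tied to fenestrated endothelium were split. Of 15 listed, Esm1, Gpihbp1, Ca4, Rgcc, Aplnr and Exoc3l2 did not match a shared gene. Of 9 measured, 4 were enriched more in choroid (Plvap, Kdr, Ppap2a and Ppap2b) and 3 less (Vwa1, Igfbp3 and Igfbp5), with a median difference of -0.40 that ran from -0.68 to 0.18 over the alternatives (other scalings and tests, a replicate block, and left-out libraries). The higher and lower genes were 44.4% and 33.3% of the list, against 9.49% and 22.3% of all genes tested. In Positive, 8 of 9 had all choroid libraries above all retina libraries (30.6% of all genes tested). Plvap (chr8:71497753-71511769) went from 1365, 676 and 1333 CPM to 10381, 10219 and 8858 in choroid and from 14.7, 10.5 and 12.5 to 21.4, 16.5 and 18.9 in retina. Its enrichment was 3.12 in choroid and 0.60 in retina (adjusted p = 0.161), and the difference 2.53 ± 0.36 (adjusted p = 0.000148). Ppap2a and Ppap2b, phospholipid phosphatases, differed by 1.52 ± 0.36 and 1.81 ± 0.34.

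Igfbp3, a binding protein of insulin-like growth factors, was higher in choroid yet enriched less there. It stood at 4165, 4268 and 3454 CPM in Choroid Positive and 55.00, 68.8 and 119 in Retina Positive, from 531, 351 and 514 and 2.11, 2.61 and 2.67 in the Inputs, a difference of -1.96 ± 0.38. Igfbp5 fell in both tissues, from 6597, 2967 and 5260.1 to 829, 741 and 640.4 CPM in choroid, and differed by -1.91 ± 0.34. Vwa1, a matrix protein, rose by 1.15 in choroid and 5.08 in retina and was the 1 member lower in Choroid Positive (137, 108 and 171 CPM) than in Retina Positive (234, 223 and 488). Nrp1 (-0.80 ± 0.33) and Dysf (-0.40 ± 0.57) did not pass the test.

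Barrier genes gave the lowest list median. Of 18 measured genes of the blood-brain and blood-retina barriers, 17 had a lower difference and none a higher one, the exception being Cgn, with a median of -4.47. Their median enrichment was 0.20 in choroid and 4.37 in retina, where 15 rose and none fell; in choroid 4 rose and 6 fell. In Positive, 11 of the 18 had all choroid libraries below all retina libraries (32.3% of all genes tested) and none had them above. In Choroid, 10 of the 18 met the minimum through Input alone, and among the 7 that met it in both fractions all 7 were lower in a fit restricted to such genes, with a median of -4.45.

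Slco1c1 (chr6:141524386-141570177), a carrier of thyroid hormone, gave the lowest difference among called genes at or above the median level. It stood at 293, 326 and 305 CPM in Choroid Input and 33.7, 41.3 and 38.7 in Choroid Positive. In retina it rose from 14.5, 8.31 and 10.2 CPM to 322, 244 and 612. The fractions were thus ordered in opposite ways, with no overlap in either tissue. The difference was -8.20 ± 0.46 (adjusted p = 2.97e-07), a 294-fold lower Positive to Input ratio in choroid.

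Mfsd2a, which transports docosahexaenoic acid as a lysolipid and restrains vesicle traffic across barrier endothelium, stood at 27.9, 72.9 and 32.8 CPM in Choroid Input and 8.12, 3.44 and 13.1 in Choroid Positive. In retina it stood at 2.52, 2.01 and 3.11 CPM in Input and 79.4, 63.8 and 163 in Positive, giving a difference of -7.58 ± 0.68. Slc22a8, an organic anion transporter, fell from 153, 241 and 249 to 51.1, 48.1 and 21.8 CPM in choroid and rose from 2.93, 1.85 and 3.49 to 56.3, 54.04 and 133 in retina, a difference of -7.32 ± 0.59. These 3 transporters fell in choroid and rose in retina. Slc7a5, the large neutral amino acid carrier, did so as well, with 66.5, 61.9 and 89.8 CPM in Choroid Positive against 597, 748 and 1482 in Retina Positive and a difference of -5.80 ± 0.42.

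The remaining barrier genes did not all fall in choroid. Slco1a4, another organic anion carrier, stood at 307, 385 and 414 CPM in Choroid Input and 333, 445 and 444 in Positive and rose from 10.3, 8.31 and 9.60 to 468, 544 and 1050.4 in retina, a difference of -6.05 ± 0.40. Abcb1a, the P-glycoprotein efflux pump, rose in both, from 127, 148 and 117 to 753, 356 and 619 CPM in choroid and from 8.02, 7.39 and 8.40 to 467, 534 and 1077 in retina, and differed by -4.29 ± 0.44. Its Positive levels overlapped between the tissues. Slc2a1, the glucose transporter of barrier endothelium, stood at 1238, 1136 and 1778 CPM in Choroid Positive and 1261, 1403 and 2827 in Retina Positive, and differed by -2.88 ± 0.39, with 1129, 1376 and 1379 CPM in Choroid Input. Tfrc, the transferrin receptor, fell in choroid (-2.28 log2) and did not pass the test in retina (-0.25). Cgn, the tight junction protein cingulin, gave 1.32 ± 0.82 (adjusted p = 0.242), with 8.90, 127 and 137 CPM in Choroid Positive, and passed the test without Choroid Positive 1, at 1.91 ± 0.30. Pigment epithelium transcripts, described below, made up 4.51% of Choroid Input counts and 0.379% of Choroid Positive counts, and their part in the barrier values was not tested.

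**Figure D3:**
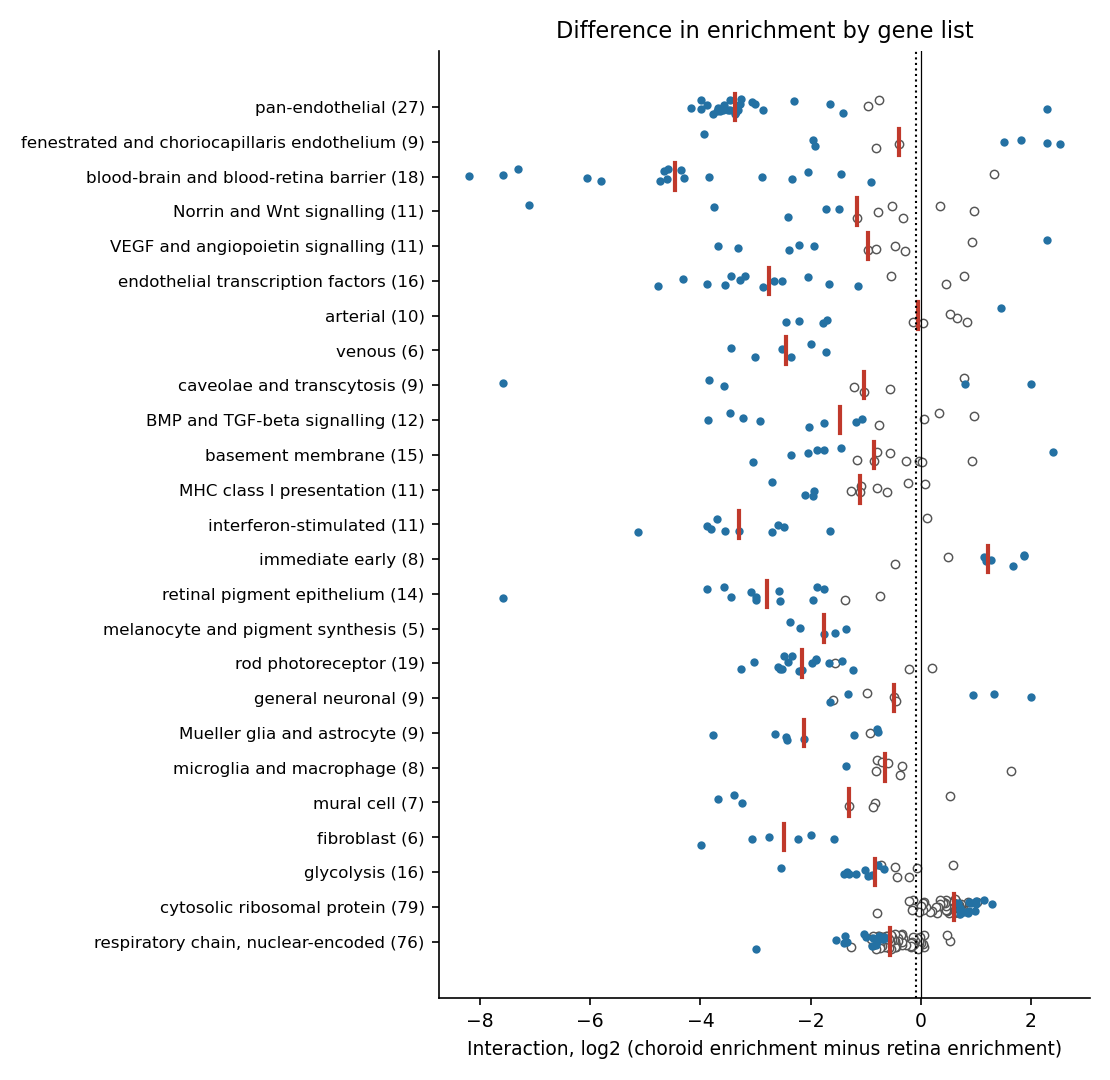
Enrichment difference (log2, choroid minus retina) of every measured member of 25 gene lists, with filled points for called genes, open points for the others, red bars at list medians and a dotted line at the median of all genes. Barrier, pan-endothelial and interferon lists have the lowest medians, at -4.47, -3.38 and -3.29, and the immediate early list the highest, at 1.23.

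Norrin and Wnt signalling through Fzd4 keeps the barrier programme of retinal vessels in place. Of 11 measured genes of this pathway, 5 were enriched less in choroid (45.5%, against 22.3% of all genes tested) and none more, with a median of -1.16. The Choroid minimum was met through Input alone by 5 of the 11. Among the 5 that met it in both fractions, 2 were lower in a fit restricted to such genes. The lowest was Tnfrsf19, a Wnt target in brain endothelium, which fell from 53.5, 50.2 and 49.3 to 10.1, 15.5 and 20.6 CPM in choroid and rose from 2.45, 1.61 and 2.45 to 70.3, 70.4 and 121 in retina, a difference of -7.10 ± 0.44. Apcdd1, a feedback inhibitor of Wnt signalling, stood at 11.99, 13.8 and 14.3 CPM in Choroid Positive and 163, 152 and 263 in Retina Positive and differed by -3.75 ± 0.63. The co-receptors Reck and Gpr124 differed by -2.41 ± 0.39 and -1.48 ± 0.47, the second a call lost in 6 alternatives. Fzd4 itself differed by -1.73 ± 0.55 (adjusted p = 0.0289), a call lost without Choroid Input 3 (-1.56 ± 0.60), Retina Input 3 (-1.64 ± 0.61) or Retina Positive 3 (-1.18 ± 0.47). Tspan12, which couples Norrin to Fzd4, had the highest value, 0.97 ± 0.42, and did not pass (adjusted p = 0.0944). Lrp5, Ctnnb1 and Axin2 did not pass either, at -1.16 ± 0.51, -0.32 ± 0.27 and -0.53 ± 0.37.

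Of 11 measured VEGF and angiopoietin genes, 5 were enriched less in choroid and 1, Kdr, more, with a median of -0.95. These were 45.5% and 9.09% of the list, against 22.3% and 9.49% of all genes tested. The ligands Vegfa and Vegfb fell in choroid, Vegfa from 417, 529 and 553 to 70.01, 92.8 and 109.7 CPM, and did not pass in retina (211, 175 and 189 in Input, 160.4, 119 and 119 in Positive), with differences of -1.94 ± 0.27 and -2.21 ± 0.31. Vegfc, the ligand of the lymphatic receptor Flt4, rose in both tissues and differed by -2.39 ± 0.48. The receptors Flt4 (-0.46 ± 0.50) and Nrp2 (-0.29 ± 0.32) and the ligand Angpt2 (0.94 ± 0.46) did not pass the test.

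Endothelial transcription factors resembled the pan-endothelial list, with 13 of 16 measured genes lower and none higher at a median of -2.76. Foxf2, a forkhead factor of brain vessels, had the lowest difference, -4.76 ± 0.53. It stood at 134, 56.8 and 101 and 382, 179 and 270.0 CPM in choroid Input and Positive and at 1.67, 1.08 and 2.67 and 112, 114 and 187 in retina. Foxc1 did not pass in choroid (0.37) and rose in retina (4.68). The ETS factor Erg rose by 2.66 log2 in choroid and 6.54 in retina, and Klf2, which responds to blood flow, by 2.55 and 6.11. Etv6 had the highest value, 0.79 ± 0.30, and did not pass (adjusted p = 0.0568).

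Arterial and venous genes were counted apart. Of 10 measured arterial genes, 4 were lower (Sema3g, Gja5, Dll4 and Gja4) and 1, Efnb2, was higher. These were 40% and 10% of the list, against 22.3% and 9.49% of all genes tested. The arterial median was -0.06 and ran from -0.30 to 0.18 over the alternatives. Efnb2, the arterial ephrin ligand, went from 97.3, 40.7 and 67.1 to 409.6, 248 and 332 CPM in choroid and from 34.7, 41.5 and 36.4 to 59.2, 59.3 and 79.1 in retina, a difference of 1.46 ± 0.36. Sema3g, a semaphorin of arterial endothelium, differed by -2.45 ± 0.60, and Gja4, a connexin, by -1.70 ± 0.56, the latter a call lost in 6 of the alternatives tried. All 6 measured venous genes were lower (against 22.3% of all genes tested), with a median of -2.44. Vwf, the clotting factor carrier, had the lowest at -3.44 ± 0.46, and Nr2f2, the venous fate factor, the highest at -1.72 ± 0.28, with 77.8, 51.6 and 48.6 CPM in Choroid Positive from 145, 136 and 123 in Input. No test compared the arterial with the venous list.

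Caveolar genes went both ways. Of 9 measured, 2 were higher (Ehd4 and Cav1) and 3 lower (Mfsd2a, Sdpr and Ptrf), with a median of -1.03. These were 22.2% and 33.3% of the list, against 9.49% and 22.3% of all genes tested. Ehd4, an ATPase of membrane traffic, stood at 1998, 1496 and 1773 CPM in Choroid Positive from 361, 179 and 307 in Input and at 87.2, 102 and 154 in Retina Positive from 56.2, 69.1 and 94.8, a difference of 1.99 ± 0.39. Cav1, the coat protein caveolin, differed by 0.80 ± 0.27 (adjusted p = 0.0384), a call lost in 11 of the alternatives, a block for replicate number among them. Sdpr and Ptrf, the cavins that shape caveolae, differed by -3.85 ± 0.43 and -3.58 ± 0.34. The 4 measured Gimap GTPases rose in both tissues. Among them 1, Gimap6, was called lower at -3.19 ± 0.66 (25% of the list, against 22.3% of all genes tested). That count ran from 1 to 4 over the alternatives.

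In BMP and TGF-beta signalling, 8 of 12 measured genes were lower and none higher, with a median of -1.47. The endothelial receptors Acvrl1 and Eng differed by -3.23 ± 0.47 and -3.47 ± 0.47, Tgfbr2 by -3.87 ± 0.40, and the target Id1 by -2.03 ± 0.39. Tgfbr2 went from 324, 227 and 255 to 668, 406 and 527 CPM in choroid and from 7.55, 5.90 and 6.71 to 137, 152 and 300.3 in retina. The inhibitor Smad7 had the highest value, 0.97 ± 0.36, and did not pass (adjusted p = 0.0551).

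Basement membrane genes gave 6 lower and 1 higher of 15 measured, with a median of -0.86. These were 40% and 6.67% of the list, against 22.3% and 9.49% of all genes tested. The higher one was Col15a1, a collagen of the outer basement membrane zone, which went from 84.8, 48.2 and 72.9 to 247, 361 and 277 CPM in choroid. In retina it stood at 3.40, 4.14 and 4.25 CPM in Input and 3.92, 2.18 and 3.06 in Positive. Its Positive level was thus higher in every choroid library than in any retina library, and the difference was 2.40 ± 0.35 (adjusted p = 0.000155). Itga6, a laminin receptor chain, had the lowest difference at -3.05 ± 0.62, Lama4, the laminin chain of capillaries, -2.35 ± 0.44, and Hspg2, perlecan, -1.88 ± 0.43.

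Lipid uptake genes mostly fell in choroid, 6 of 7 measured, and 4 were called lower and 1 higher with a median of -1.01. The lower and higher genes were 57.1% and 14.3% of the list, against 22.3% and 9.49% of all genes tested. In Choroid, 5 of the 7 met the minimum through Input alone, and of the 2 that met it in both fractions 1 was higher and 1 lower. Lrp1, a receptor of lipoprotein remnants, had the lowest at -2.88 ± 0.29, having fallen from 1144, 827 and 1172 to 156, 113 and 160.2 CPM in choroid. Scarb1, the receptor of high-density lipoprotein, was the higher one, with 186, 140.2 and 234 CPM in Choroid Input, 549.7, 504 and 639.7 in Positive, and 1.38 ± 0.27 for the difference. Cd36, a fatty acid carrier of capillaries, fell in choroid from 122, 66.8 and 99.3 to 23.98, 63.6 and 11.8 CPM and its difference did not pass (-0.97 ± 0.61) except without Choroid Positive 2, at -1.60 ± 0.46.

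Interferon-stimulated genes rose in retina and went both ways in choroid. Of 11 measured, 11 rose in retina, while in choroid 4 rose and 3 fell, and 10 were called lower with a median difference of -3.29. Summed, the list took 0.125% ± 0.0101 (SD, n = 3) of the counts in Choroid Input and 0.176% ± 0.0160 in Choroid Positive, without overlap. In retina it took 0.0151% ± 0.00267 of Input and 0.0692% ± 0.0268 of Positive. Ifit1, an RNA-binding antiviral protein, fell from 63.9, 49.7 and 44.4 to 9.67, 6.88 and 22.4 CPM in choroid and rose from 5.48, 3.41 and 4.80 to 29.2, 30.6 and 65.5 in retina, a difference of -5.13 ± 0.57. Ifitm3, a membrane protein that blocks viral entry, rose in both, to 559, 719 and 718 CPM in Choroid Positive and 122, 142 and 235 in Retina Positive, and differed by -3.54 ± 0.37. In Choroid, 6 of the 11 met the minimum through Input alone, and in the fit on genes that met it in both fractions 4 of 5 were lower. MHC class I genes rose in both tissues, 10 of 11 in choroid and 11 of 11 in retina. The difference of these genes was called lower for 4 (36.4%, against 22.3% of all genes tested) and higher for none, with a median of -1.10. B2m, the light chain, had the lowest at -2.69 ± 0.45, while H2-K1 (-1.10 ± 0.54) and H2-D1 (-1.08 ± 0.45) did not pass. How reads shared by near-identical genes, such as these 2 or the globins and ribosomal proteins described below, were assigned is not stated in the labels.

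The single genes with the largest differences were taken among called genes whose level was at or above the median of tested genes and whose 3 choroid pair differences (log2 Positive over Input of same-numbered libraries, a way to set libraries side by side that does not assume a shared sample) all lay on 1 side of the 3 retina ones, as 18.7% of all genes did on the higher side and 30% on the lower. These 24 genes were chosen by the difference, so the values that follow describe them and add no support. Aqp1 (chr6:55336299-55348555), a water channel, led the higher side. It stood at 663, 242 and 675 CPM in Choroid Input and 4527, 2900.0 and 4353 in Choroid Positive. In retina it stood at 220.3, 247 and 257 CPM in Input and 157, 181 and 134 in Positive, and did not pass the test there. The difference was 3.51 ± 0.45, an 11.4-fold larger Positive to Input ratio in choroid.

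Behind Aqp1 came Pdia5, a protein disulfide isomerase (3.36 ± 0.45), Sncg, gamma-synuclein (2.84 ± 0.40), Impdh1, an enzyme of guanine nucleotide synthesis (2.65 ± 0.38), Ankrd33b (2.64 ± 0.28), Abcg1, a cholesterol exporter (2.56 ± 0.31), Cd24a, a surface sialoglycoprotein (2.53 ± 0.35), and Plvap. Ptpru (2.52 ± 0.55), Six3, an eye-field homeodomain factor (2.37 ± 0.22), Sema3f (2.34 ± 0.27) and Prickle2 (2.32 ± 0.33) closed the set. Cd24a went from 304, 179 and 326 to 2368, 1812 and 2122 CPM in choroid against 21.1, 14.9 and 14.1 and 17.95, 21.5 and 27.7 in retina. Six3 went from 386, 381 and 418 to 2037, 1619 and 1463 CPM in choroid against 211, 218 and 225 and 171, 200.4 and 175 in retina. Impdh1 went from 112, 51.2 and 116 to 748, 564 and 503 CPM in choroid against 959, 1140.2 and 1116 and 1092, 1323 and 876 in retina. All 12 rose in choroid, and in retina none rose and Ankrd33b alone fell. Their levels in Retina Input could be above those in Choroid Input, as for Impdh1, or below, as for Cd24a. Lars2 had a higher difference than these (5.26 ± 1.85) but its choroid pairs overlapped the retina pairs. It stood at 294, 45519 and 1293 CPM in Choroid Positive, and the call was lost in 11 alternatives, with a difference of 0.95 ± 1.13 without Choroid Positive 2.

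On the lower side, Stra6 (chr9:58129088-58153997), the receptor for retinol-binding protein, followed Slco1c1. It fell from 791, 1054 and 1136 CPM in Choroid Input to 171, 96.3 and 117 in Choroid Positive. In retina it rose from 13.7, 8.03 and 5.78 CPM to 209, 188 and 304. The retina Positive libraries were above every choroid Positive library although the Choroid Input libraries were the highest of all, and the difference was -7.58 ± 0.46. Sema3c, a secreted semaphorin, also fell in choroid and rose in retina, although its Positive levels overlapped between the tissues, with 729, 836 and 912 and 160.1, 144 and 126 CPM in choroid, 6.42, 2.53 and 4.85 and 86.3, 106 and 216 in retina and a difference of -7.40 ± 0.51.

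Pltp, the phospholipid transfer protein, fell less in choroid, from 1138, 1900.2 and 1527 to 1025, 732 and 716 CPM. In retina it rose from 23.2, 14.5 and 18.8 CPM to 975, 1096 and 1890.3, and the difference was -7.01 ± 0.43. Sepp1, the plasma selenium carrier, differed by -5.76 ± 0.37 with a fall in choroid and a rise in retina. Cxcl12, a chemokine, did not pass in choroid (0.46) and rose by 5.33 in retina. Slc16a1, a lactate carrier of barrier endothelium and pigment epithelium, fell from 769.8, 1426 and 1172 to 74.7, 119 and 48.6 CPM in choroid, was not called in retina (0.74) and differed by -4.60 ± 0.39. Abhd2, Tmem98, Slc7a5 and Slco1a4 were also in this set, and Mgp, an inhibitor of calcification, was its 1 member that rose in both tissues (1.07 and 5.78).

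**Figure D4:**
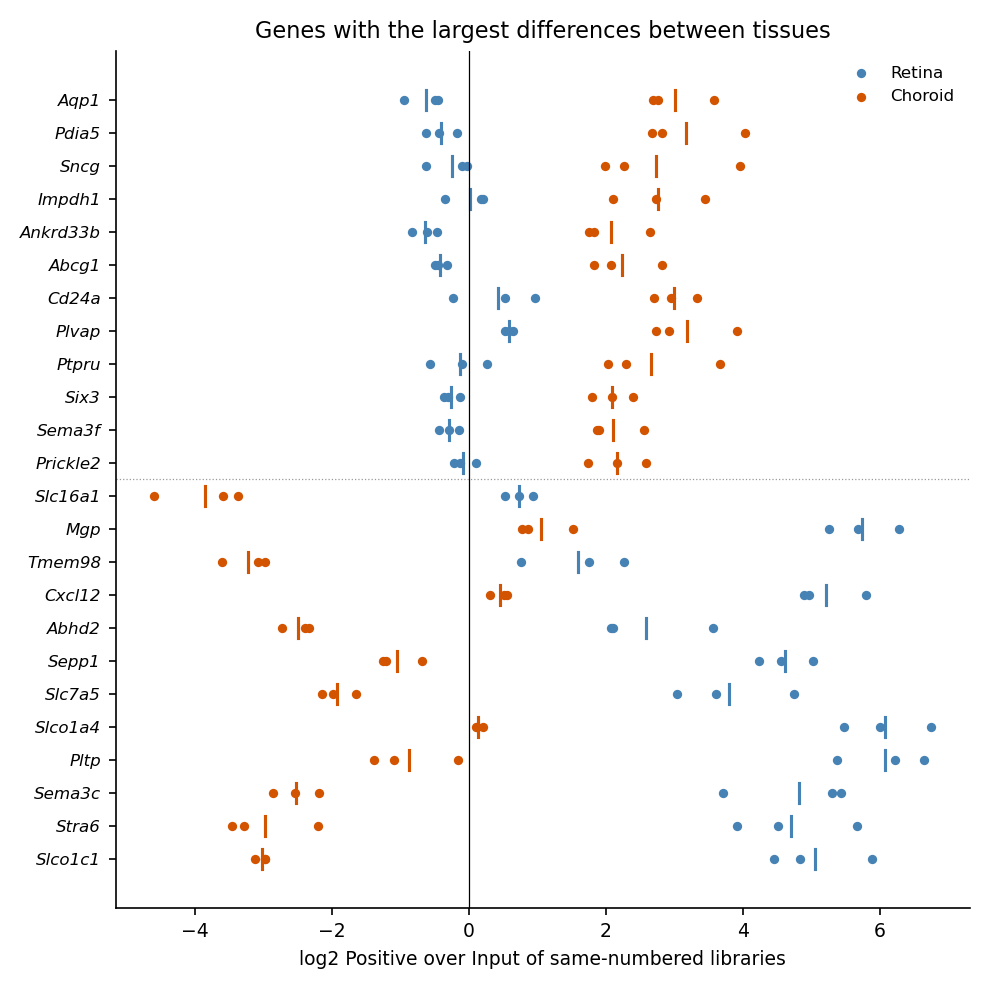
Log2 Positive over Input of the 3 same-numbered library pairs in choroid (orange) and retina (blue), with bars at the means, for the 12 genes with the highest and the 12 with the lowest enrichment difference under the stated rule. Retina pairs of the upper 12 genes lie around 0 and their choroid pairs above all of these, while Slco1c1, Stra6 and Sema3c lie below 0 in choroid and above 0 in retina.

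Some genes rose at least 2-fold in both tissues and still differed. Of 81 such genes with separate pairs, 12 were enriched more in choroid and 69 more in retina. On the lower side the leading genes were Mgp (-4.72 ± 0.40), Ltbp4, a binding protein of latent TGF-beta (-4.45 ± 0.38), Tinagl1 (-4.44 ± 0.37), Itm2a (-4.35 ± 0.43) and Ly6c1, a surface antigen of capillary endothelium (-4.32 ± 0.53), followed by Abcb1a, Cd93, Eltd1, Gpr116 and Vwa1. Ltbp4 rose from 450.3, 287 and 419 to 972, 736 and 984 CPM in choroid and from 15.5, 10.7 and 14.3 to 541, 521 and 996 in retina. On the higher side stood Car8, a protein related to carbonic anhydrases (1.53 ± 0.31), Ppap2a, Jup, the junction protein plakoglobin (1.50 ± 0.36), and Arl15 (1.04 ± 0.28). Ppp1r16b (1.38 ± 0.42), Hes1 (1.01 ± 0.32), Jag2 (0.99 ± 0.34), Arhgef15 (0.92 ± 0.31) and Dusp3 (0.88 ± 0.26) also belonged there, and each of these 5 lost its call in 1 to 11 of the alternatives. Jup stood at 1309.8, 1159 and 1562 CPM in Choroid Positive and 91.9, 106 and 175 in Retina Positive.

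The genes carried by the NuTRAP allele were among those that rose in both. Rangap1 went from 327, 213 and 292 to 2036, 1128 and 2288 CPM in choroid and from 253, 244 and 265 to 712, 763 and 965 in retina, a difference of 1.03 ± 0.34 (adjusted p = 0.0316), a call lost in 10 alternatives. Rpl10a, named here after its values were seen, went from 263, 251 and 258 to 820.1, 1059 and 1009 CPM in choroid and from 223, 194 and 227 to 304, 308 and 371 in retina, a difference of 1.29 ± 0.21 (adjusted p = 0.000362). Whether transcripts of the allele itself entered these counts was not tested.

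Genes that moved in opposite directions numbered 14 and 33 at or above the median level. Of each kind, the 8 described were those whose smaller change, in choroid or in retina, was largest, so that genes with a large change in 1 tissue and a small one in the other (such as Pltp) are not among them. Those that rose in choroid and fell in retina were Tet3, a dioxygenase of methylated cytosine, Hook3, Plekhf2, Gabpb2, Ankrd33b, Trib2, Ralgps2 and Ric8b. Trib2, a pseudokinase, stood at 85.1, 68.3 and 79.7 and 254, 232 and 273 CPM in choroid and at 245, 234 and 222 and 149, 175 and 139 in retina, a difference of 2.30 ± 0.20. Their changes in retina were small, between -1.03 and -0.58 log2. Those that fell in choroid and rose in retina were Slco1c1, Stra6, Sema3c, Abhd2, Slc7a5, Bsg, Tmem98 and Sparcl1. Bsg, basigin, a partner of lactate carriers found on barrier endothelium and pigment epithelium, went from 2711, 4566 and 3403 to 825, 954 and 596 CPM in choroid and from 1045, 947 and 970.3 to 2967, 3390.3 and 4018 in retina, a difference of -3.98 ± 0.33. Sparcl1, a matrix glycoprotein of astrocytes and vessels, differed by -2.61 ± 0.45.

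Genes of the retinal pigment epithelium fell in choroid. Of 14 measured, 13 fell in choroid, 5 fell and 1 rose in retina, and 12 were called lower, with a median difference of -2.78. The Choroid minimum was met through Input alone by 4 of the 14. The list took 4.51% ± 1.03 (SD, n = 3) of the counts in Choroid Input and 0.379% ± 0.0658 in Choroid Positive, against 0.109% ± 0.0173 and 0.111% ± 0.0220 in Retina Input and Positive. Rlbp1, the retinal-binding protein of pigment epithelium and Müller glia, went from 2042, 4371 and 3676 to 183, 318 and 166 CPM in choroid. In retina it stood at 549, 434 and 451 CPM in Input and 416, 329 and 624 in Positive. The choroid fractions were separate and the retina fractions overlapped, with a difference of -3.88 ± 0.46 (adjusted p = 2.94e-05). Rpe65 fell in both tissues, with 202, 366 and 148 CPM in Choroid Positive and 4.49, 1.04 and 1.62 in Retina Positive, and its difference, -1.89 ± 0.67 (adjusted p = 0.0452), lost its call in 8 alternatives. Rgr, an opsin of the same cells, differed by -1.75 ± 0.60, a call lost in 6 alternatives, and Mertk, a receptor for engulfing outer segments, did not pass (-0.74 ± 0.52). All 5 measured genes of melanocytes and pigment synthesis, 4 of them listed in Choroid through Input alone, fell in choroid and were called lower, from Slc24a5 at -2.37 ± 0.49 to Kit at -1.36 ± 0.38, with Tyr, tyrosinase, at -1.76 ± 0.46 and Dct at -1.56 ± 0.55, a call lost in 10 alternatives.

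Rod genes fell in choroid and did not pass the test in retina. Of 19 measured, 17 fell in choroid, none was called in retina, and 16 were called lower with a median difference of -2.15. Summed, the list took 0.454% ± 0.0387 of the counts in Choroid Input and 0.144% ± 0.0222 in Choroid Positive. In retina it took 8.62% ± 0.7997 of Input and 7.95% ± 1.97 of Positive, 2 ranges that overlapped. Sag fell from 112, 126 and 156 to 30.6, 37.8 and 21.2 CPM in choroid and stood at 3727, 4999 and 5202 in Retina Input and 3899, 4836 and 3264 in Retina Positive, a difference of -1.97 ± 0.35 (adjusted p = 0.000649). Slc24a1, the rod sodium-calcium exchanger, differed by -3.26 ± 0.40. Gnb1, a G protein subunit used by many cells, gave 0.21 ± 0.28 and did not pass. In Choroid, 17 of these 19 genes met the minimum through Input alone.

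Factors of the OTX family, Otx2 in pigment epithelium and Crx in photoreceptors, bind sites with the core TAATCC. In the 250 upstream bases, these letters were found on either strand in 3 of 11 pigment epithelium genes with an entry (27.3%) and in 4 of 11 rod genes (36.4%), against 6.41% of tested genes with an entry and 7.21% of the whole promoter table. Such shares were not particular to these 2 lists. The letters were also in 4 of 16 glycolytic genes (25%) and 2 of 6 Müller glia and astrocyte genes (33.3%), and in none of 16 barrier genes. The pattern searched for MITF, CACGTG, was in none of the 11 pigment epithelium promoters, none of the 5 melanocyte ones and in 10.8% of tested genes with an entry. Otx2 fell in choroid from 197, 342 and 379 to 26.7, 36.1 and 27.4 CPM and Crx from 35.2, 28.1 and 45.4 to 8.12, 17.2 and 3.74. The promoters of Rpe65 (chr3:159598931-159599180, plus strand) and Sag (chr1:87803430-87803679, plus strand) are shown because they carry these letters, 1 from each of the 2 lists. Capitals mark the match, on the opposite strand in both.
Rpe65: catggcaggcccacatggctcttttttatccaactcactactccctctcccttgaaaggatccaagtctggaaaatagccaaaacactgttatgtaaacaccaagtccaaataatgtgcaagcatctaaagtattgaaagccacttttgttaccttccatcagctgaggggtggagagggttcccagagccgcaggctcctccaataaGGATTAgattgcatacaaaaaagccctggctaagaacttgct
Sag: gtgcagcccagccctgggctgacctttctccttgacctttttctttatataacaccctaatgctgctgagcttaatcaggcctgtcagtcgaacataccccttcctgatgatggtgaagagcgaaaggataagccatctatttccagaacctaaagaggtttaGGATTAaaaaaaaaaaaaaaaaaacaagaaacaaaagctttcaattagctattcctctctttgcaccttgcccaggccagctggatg

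Müller glia and astrocyte genes fell in choroid in 7 of 9 and were lower in 8 of 9, with a median of -2.12, from Gja1, a gap junction protein (-3.76 ± 0.39), to Aldoc (-0.77 ± 0.20). Summed, the list took 1.8% of the counts in Choroid Input and 0.482% in Choroid Positive, against 0.632% and 0.663% in retina. In Input, 6 of 9 had all choroid libraries above all retina libraries (39% of all genes tested) and 3 had them below (38.7%). Which cells these transcripts came from was not tested. Clu, clusterin, fell from 4068, 5951 and 5258 to 827, 906 and 596 CPM in choroid and did not pass in retina. Fibroblast genes, 4 of 6 listed in Choroid through Input alone, were lower in 6 of 6 with a median of -2.49, among them the collagen chain Col1a2 (-3.07 ± 0.27) and Fn1, fibronectin, which rose in retina from 29.6, 29.9 and 30.4 to 409, 459 and 992 CPM and differed by -3.99 ± 0.59. Of 7 mural cell genes 3 were lower (42.9%, against 22.3% of all genes tested), Notch3, Rgs5 and Pdgfrb, and none higher. Their median was -1.30, with Pdgfrb at -3.25 ± 0.64. In Choroid, 5 of these 7 met the minimum through Input alone, and of the 2 that met it in both fractions none was called. Mcam, an adhesion molecule that endothelium also expresses, rose in both tissues (2.61 and 2.09) and its difference did not pass the test (0.53 ± 0.36).

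Microglia and macrophage genes fell in both tissues, 7 of 8 in choroid and 6 of 8 in retina, by medians of -3.03 and -2.31. In Choroid, 7 of the 8 met the minimum through Input alone. Their median difference was -0.64, and 1 gene, Lgmn, was called lower at -1.36 ± 0.33 (12.5% of the list, against 22.3% of all genes tested). Csf1r, the receptor of colony-stimulating factor, went from 293, 285 and 412 to 37.1, 17.2 and 66.1 CPM in choroid and from 12.4, 11.8 and 12.9 to 2.89, 3.13 and 1.92 in retina, and its difference of -0.70 ± 0.44 did not pass (adjusted p = 0.252) except without Choroid Positive 3, at -1.19 ± 0.39. Both globin genes measured, each listed in Choroid through Input alone, fell in choroid, and the difference was called for Beta-s (-2.64 ± 0.70) and for Hba-a1 (-2.20 ± 0.72, a call lost in 6 alternatives). No listed lens or surface epithelium gene was among the shared genes. Of the 13 skeletal muscle genes listed, 1 was measured, Acta1, and did not pass (-2.04 ± 0.81). The Schwann cell and oligodendrocyte list gave 2 lower of 5 (40%, against 22.3% of all genes tested). They were Mal at -2.59 ± 0.76 (a call lost without Choroid Input 1, at -2.18 ± 0.79) and Pmp22 at -1.47 ± 0.32.

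Immediate early genes, which are transcribed within minutes of a stimulus to a cell, were the list with the highest median. Of 8 measured, 6 were enriched more in choroid (75%, against 9.49% of all genes tested) and none less, with a median of 1.23. The same counts held in the 20 fits that kept all 8 genes. Among the 7 at the minimum in both choroid fractions, 5 were higher in the fit restricted to such genes. Jun went from 96.2, 82.9 and 113 to 386, 359 and 513 CPM in choroid and stood at 82.8, 82.9 and 74.9 in Retina Input and 91.6, 77.5 and 113 in Retina Positive, a difference of 1.87 ± 0.26 (adjusted p = 0.000105). Nr4a1, an orphan nuclear receptor, differed by 1.87 ± 0.44, Ier2 by 1.67 ± 0.27, Dusp1, a MAP kinase phosphatase, by 1.27 ± 0.33, Btg2 by 1.18 ± 0.28 and Junb by 1.14 ± 0.32. Egr1 (0.49 ± 0.51) and Zfp36 (-0.46 ± 0.38) did not pass.

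Glycolytic genes fell in choroid, 13 of 16, with none called in retina, and 10 were called lower at a median difference of -0.83. The Choroid minimum was met through Input alone by 5 of the 16. Ldhb, the lactate dehydrogenase chain of oxidative tissue, was the lowest at -2.53 ± 0.28 and fell from 482, 589.9 and 550.1 to 104, 67.04 and 53.6 CPM in choroid. Ldha, the other chain, had the highest value, 0.59 ± 0.23, and did not pass (adjusted p = 0.0673). Nuclear-encoded respiratory chain genes had 15 lower of 76 (19.7%, against 22.3% of all genes tested) and a median of -0.56, a count that ran from 4 without Retina Input 1 to 32 without Choroid Positive 2. Cox6b2 was the lowest at -2.99 ± 0.62. Input alone brought 22 of the 76 respiratory chain genes over the Choroid minimum. Genes of endoplasmic reticulum chaperones lay near the median of all genes, with a list median of -0.08. Of 14 measured, 1 was called lower (7.14%, against 22.3% of all genes tested), Dnajc3 at -0.84 ± 0.22.

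Cytosolic ribosomal protein genes were called higher in 14 of 79 (17.7%, against 9.49% of all genes tested) and lower in none, with a median of 0.60. The count ran from 4 without Retina Input 3 to 59 without Choroid Positive 1, and was 51 in the fit of all 18 libraries. Rpl10a had the highest difference of the list (1.29 ± 0.21), followed by Rps18 (1.14 ± 0.34, a call lost in 2 alternatives, the replicate block among them). The median log2 enrichment of the list in the 3 choroid pairs was -0.22, 0.64 and 0.52, and in the retina pairs -0.16, -0.05 and -0.33, so choroid pair 1 lay among the retina pairs.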

How the data were processed

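Each deposited tissue table gives raw estimated counts per gene and, beside them, log2 values that the authors made from them against an Input baseline, per the file headers; the log2 values were not used. Genes were kept by the authors at 50 or more in every library of at least 1 fraction, per the file headers. mm10 and DESeq stand in the submitters' processing notes, which give no version; aligner and counter are not given in the labels. Estimated counts of the 12 libraries were rounded and fitted with edgeR 4.0.16 (R 4.3.3) over the 4 groups with TMM factors and no replicate block; the low-count filter (10) removed 0 genes, and 8 residual degrees of freedom remained. The interaction was tested by quasi-likelihood, with Benjamini-Hochberg adjustment over 7313 genes; SE is the log2 value over the square root of F. On simulated counts of this comparison with 200 changed genes among 7313, a share of 0.36 of 2-fold and 0.95 of 4-fold changes was recovered. Far more genes, 2322, were called in the data, so these shares need not hold there. Alternatives used DESeq2 1.42.0, limma 3.58.1 (voom), other scaling and left-out libraries. Named genes follow fixed rules: the largest differences at or above median level with separated pairs, the same among genes raised in both tissues, genes moving opposite ways, and list members (the first 2 and the extremes); other members named were chosen after their values were seen. Genes and lists were chosen with earlier results of these data known. Of 471 list entries, 314 matched a tested gene by current symbol; older symbols were matched through listed aliases. P-values measure the spread between biological replicates as labelled.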

Additional observations from a re-analysis of the deposited data

Results flagged for a closer look

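The tissues differed in their response to the pull-down for 2322 genes by the test of the interaction itself (edgeR quasi-likelihood, Benjamini-Hochberg adjusted p under 0.05). Among called genes at or above the median level that moved in opposite directions, the 16 named by rule follow. Rising in choroid and falling in retina, with their enrichment differences, were Tet3 (2.20), Hook3 (1.56), Plekhf2 (1.40), Gabpb2 (1.48), Ankrd33b (2.64), Trib2 (2.30), Ralgps2 (1.85) and Ric8b (1.21). Falling in choroid and rising in retina were Slco1c1 (-8.20), Stra6 (-7.58), Sema3c (-7.40), Abhd2 (-5.13), Slc7a5 (-5.80), Bsg (-3.98), Tmem98 (-4.83) and Sparcl1 (-2.61). Each was chosen for its opposite changes, so these values describe the selection.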

How the results depend on the processing

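The 2322 genes called (694 higher and 1628 lower) became 1323 (358 and 965) at or above the median level, where fewer genes were tested, and 1038 (334 and 704) among genes at the authors' minimum in both choroid fractions, an alternative chosen after seeing the data. At adjusted p under 0.01 they were 1446, with 322 higher, and at 2-fold or more 356 were higher. The higher count was 1048 with the DESeq2 Wald test and 1581 with all 18 libraries; the cause was not tested. Leaving out 1 library gave 1830 to 2716 calls, 442 to 873 higher and 1388 to 1843 lower. Positive against Input in choroid gave 1969, 1481 and 2054 calls at the median level, at the minimum in both fractions and at 2-fold or more, in place of 3593, and 3213 to 3832 without 1 library. In retina the 1220 calls became 750 at the median level, 799 at 2-fold or more, 2007 with limma-voom and 2223 with all 18 libraries, and 902 to 1431 without 1 library; the cause was not tested. Replicate number was entered as a block within tissue because labels share it. That fit gave 2365 calls, 2176 of them shared with the unblocked fit. Same-numbered Input and Positive libraries deviated together in choroid (r of 0.17, 0.19 and 0.13) but not in retina (-0.01, 0.35 and -0.03, with Retina Input 1 closest to Positive 3 at 0.32), so the block was not taken as the main design. Same-numbered differences entered the rule for naming genes, the plot of leading genes and the medians by pair of ribosomal protein genes. Every choroid library correlated best with its own number. Of 148 named genes that passed, 19 lost the call under at least 1 alternative. Of 3737 named-gene values under alternatives, 3 changed sign, all of genes that had not passed: Egr1 (-0.0033 to 0.88 over left-out libraries, the lowest without Choroid Positive 3), Dysf (-0.68 to 0.18) and Flt4 (-0.71 to 0.090), the last 2 highest without Retina Positive 3. The depth of Choroid Positive, at most 2689658 counts, limits what could be called for low genes there.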

Other observations

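Genes named for photoreceptors and neurons did not all fall in the choroid pull-down. Gngt2, a G protein subunit named as a cone gene, stood at 20.9, 12.6 and 26.9 CPM in Choroid Input and 50.3, 143 and 109 in Choroid Positive, and at 71.3, 83.2 and 92.1 and 29.05, 19.8 and 22.8 in Retina Input and Positive. It rose in choroid and fell in retina, with a difference of 3.98 ± 0.47 (edgeR, adjusted p = 3.34e-05), above that of Aqp1, but its level lay under the median of tested genes. The cone list held 3 other measured genes, of which 2 were called lower. Of the 4 cone genes, 25% were thus higher and 50% lower, against 9.49% and 22.3% of all genes tested. The Choroid minimum was met through Input alone by 3 of the 4 and through Positive alone by 1. Of 9 measured general neuronal genes, 3 were enriched more in choroid and 2 less (33.3% and 22.2%, against 9.49% and 22.3% of all genes tested). Input alone brought 5 of these 9 over the Choroid minimum. Stmn2, a regulator of microtubules, went from 61.6, 24.1 and 21.7 to 139, 115 and 117 CPM in choroid and stood at 131, 133 and 139 and 119.9, 127 and 108 in retina, a difference of 2.00 ± 0.41. Uchl1, a deubiquitinase, differed by 1.33 ± 0.44, a call lost in 11 alternatives. Of 4 interneuron and ganglion cell genes, Rbpms, an RNA-binding protein, was higher (1.51 ± 0.25) and Trpm1, the channel of bipolar cells, was lower (-2.78 ± 0.49). These were 25% each, against 9.49% and 22.3% of all genes tested. Input alone brought 3 of these 4 over the Choroid minimum.

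Nuclear long non-coding RNAs, which are not translated, gave 1 higher and 1 lower of 6 (16.7% each, against 9.49% and 22.3% of all genes tested). The Choroid minimum was met through Input alone by 3 of the 6. Neat1 fell from 791, 549 and 574 to 159, 227 and 324 CPM in choroid and did not pass in retina, a difference of -1.47 ± 0.34. Kcnq1ot1 was higher at 1.71 ± 0.47, with 147, 464 and 302 CPM in Choroid Positive and 341, 294 and 298 in Retina Positive.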
